A study of Mus musculus with 12 samples.

Results

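Interferon-stimulated genes were followed in mouse hepatocytes during 2 weeks of culture as spheroids. A list of 48 such genes was taken, and 44 of them had a probe set among the 11861 named genes of the expression table, each with 1 probe set. This list and the others used below were chosen with earlier results of these data known. The shares of their genes that passed are therefore not independent tests. The members were divided by role into 28 measured antiviral effectors of 30 listed, 8 of 8 sensors and transcription factors, and 8 of 10 interferon-inducible GTPases. Values for Oas2, Ifi44, Ifi47 and Mx1 were not analysed here.

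Hepatocytes of 12 C57BL/6 mice had been frozen in 4 pools of 3 animals, 2 pools from males and 2 from females, called here male 1, male 2, female 1 and female 2. The cells of each pool (a preparation) had aggregated into spheroids in ultra-low attachment plates, and RNA had been taken at days 1, 7 and 14. Total RNA was read on 12 Affymetrix arrays, 2 in each of the 6 combinations of sex and day. The labels name no genotype other than the strain and no treatment other than the time in culture, so each later day was compared with day 1. The model compares the means of the sex and day groups without a term for the preparation, and a fit with the preparation as a replicate block is given where it changed a call.

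Interferons are secreted proteins through which a cell warns itself and its neighbours of infection. Type I and type III interferons bind their receptors, the kinases Jak1 and Tyk2 become active, and Stat2 and Irf9 enter a complex that binds interferon-stimulated response elements. Type II interferon acts mainly at gamma-activated sites. Their targets make products that sense foreign nucleic acid, block viral entry, translation and replication, or attack the vacuoles of intracellular pathogens, and several of them, such as Irf7, raise the response further.

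The response element was looked for in the promoters of the members because it is the sequence through which type I and type III interferons act. It was written as GAAANNGAAA and searched on both strands in the 250 bases before the first listed start in RefSeq (build GRCm38.p6). Of the 44 measured members 35 had a promoter entry, and 14 of these (40%) held the element, against 821 of 27025 promoters of all genes (3.04%). All 6 GTPases with an entry held it, as did 7 of 23 effectors and 1 of 6 sensors and transcription factors. The shorter core GAAANNGA, which every GAAANNGAAA contains, was found in 20 of 35 members (57.1%) and 18.2% of all promoters, and the gamma-activated site TTCNNNGAA in 8 of 35 (22.9%) and 7.18%. Below are the promoter stretches of the 6 members with the largest falls by day 14 among those that passed the test and held the element, printed 5′ to 3′ on the strand of the gene, with every GAAANNGAAA match in capitals on either strand.
Isg15 (chr4:156200835-156200924, minus strand): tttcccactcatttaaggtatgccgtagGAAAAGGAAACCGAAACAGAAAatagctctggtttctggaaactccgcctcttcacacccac
Gbp3 (chr3:142559965-142560043, plus strand): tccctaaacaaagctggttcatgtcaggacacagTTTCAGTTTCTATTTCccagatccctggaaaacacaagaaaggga
Gbp2 (chr3:142620564-142620653, plus strand): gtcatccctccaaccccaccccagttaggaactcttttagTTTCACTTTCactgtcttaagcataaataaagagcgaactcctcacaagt
Igtp (chr11:58199482-58199555, plus strand): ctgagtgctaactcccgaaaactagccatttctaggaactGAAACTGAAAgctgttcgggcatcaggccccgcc
Gbp7 (chr3:142530243-142530332, plus strand): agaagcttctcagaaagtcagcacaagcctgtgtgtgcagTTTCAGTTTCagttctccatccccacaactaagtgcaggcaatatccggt
Irgm2 (chr11:58214873-58214962, plus strand): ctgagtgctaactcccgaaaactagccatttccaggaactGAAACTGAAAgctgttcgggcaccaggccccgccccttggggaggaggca
The matches lay close to the listed starts: 57 to 66 bases before it for the nearest of the 3 overlapping matches of Isg15, 30 to 39 for Gbp3, 50 to 59 for Gbp2, 25 to 34 for Igtp, 44 to 53 for Gbp7 and 55 to 64 for Irgm2. The stretches of Igtp and Irgm2, neighbours on chromosome 11, differed at 2 of the 74 bases they could be compared over. A match is a stretch of letters and was not tested as a binding site. The element was held by 8 of 21 members with an entry that were lower at day 14 (38.1%) and by 6 of 14 that did not pass (42.9%).

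Levels are given on the log2 scale as deposited, in the order male 1, male 2, female 1 and female 2. A change is a log2 difference ± its standard error in a limma model of the 12 arrays, and the threshold was an adjusted p of 0.05 (Benjamini-Hochberg, all 11861 genes). Hepatocyte markers were high: 10 of 10 were measured, their mean level was 11.93 at day 1, 12.03 at day 7 and 12.00 at day 14, and none had a day mean near the background. No probe set stayed under 4.79 on all arrays, so low rows had been removed from the deposited table. A mean under 4.79 is called near the background here. No member had a day 1 mean under that level, but 10 had a day 14 mean under it. They were Isg15, Ifit1, Oas1g, Oasl2, Rsad2, Sp100, Zbp1, Gvin1, Gbp2 and Gbp3, and falls to such levels may be understated. Zbp1 and Gbp3 reached 4.79 on day 1 arrays only, so they may have entered the table through day 1 alone. Their falls and calls are therefore not independent of the removal of low rows. Each of the others also reached 4.79 on a later array.

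Across the first week most of the interferon-stimulated genes moved down. From day 1 to day 7 the median change of the 44 was -0.43, against 0.00 for all genes, and 41 of the 44 changes were below 0. Lower levels passed for 19 members (43.2%), against 1.98% of all genes. No member passed as higher, against 2.74%. The level was lower in all 4 preparations for 34 members, against 14.1% of all genes. For 25 members every day 7 array lay below every day 1 array, against 5.19%. The member medians by preparation were -0.29 in male 1, -0.41 in male 2, -0.70 in female 1 and -0.35 in female 2. Each array reads a mixture, so fewer cells of a type and less RNA per cell cannot be told apart.

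Over both weeks more of the members passed as lower. From day 1 to day 14 the median of the 44 was -0.58 (all genes 0.01), with 43 changes below 0. Lower levels passed for 28 members (63.6%) against 6.8% of all genes, and no member passed as higher against 7.59%. Because the members were chosen with earlier results known, neither this share nor that of the first week is an independent test. The level was lower in all 4 preparations for 39 members (16.2% of all genes), and for 35 members no day 14 array reached any day 1 array (7.57% of all genes). The medians of the 4 preparations lay closer together than at day 7, at -0.64, -0.52, -0.61 and -0.59. Both comparisons share the day 1 arrays: 16 members passed in both, 3 at day 7 alone and 12 at day 14 alone. Because the filter could favour genes that were high at day 1, the 31 members with a mean of at least 5.5 over the 12 arrays were also taken by themselves, and their median was -0.49, with 21 lower, against 8.27% of the 9732 genes with such a mean.

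**Figure D1:**
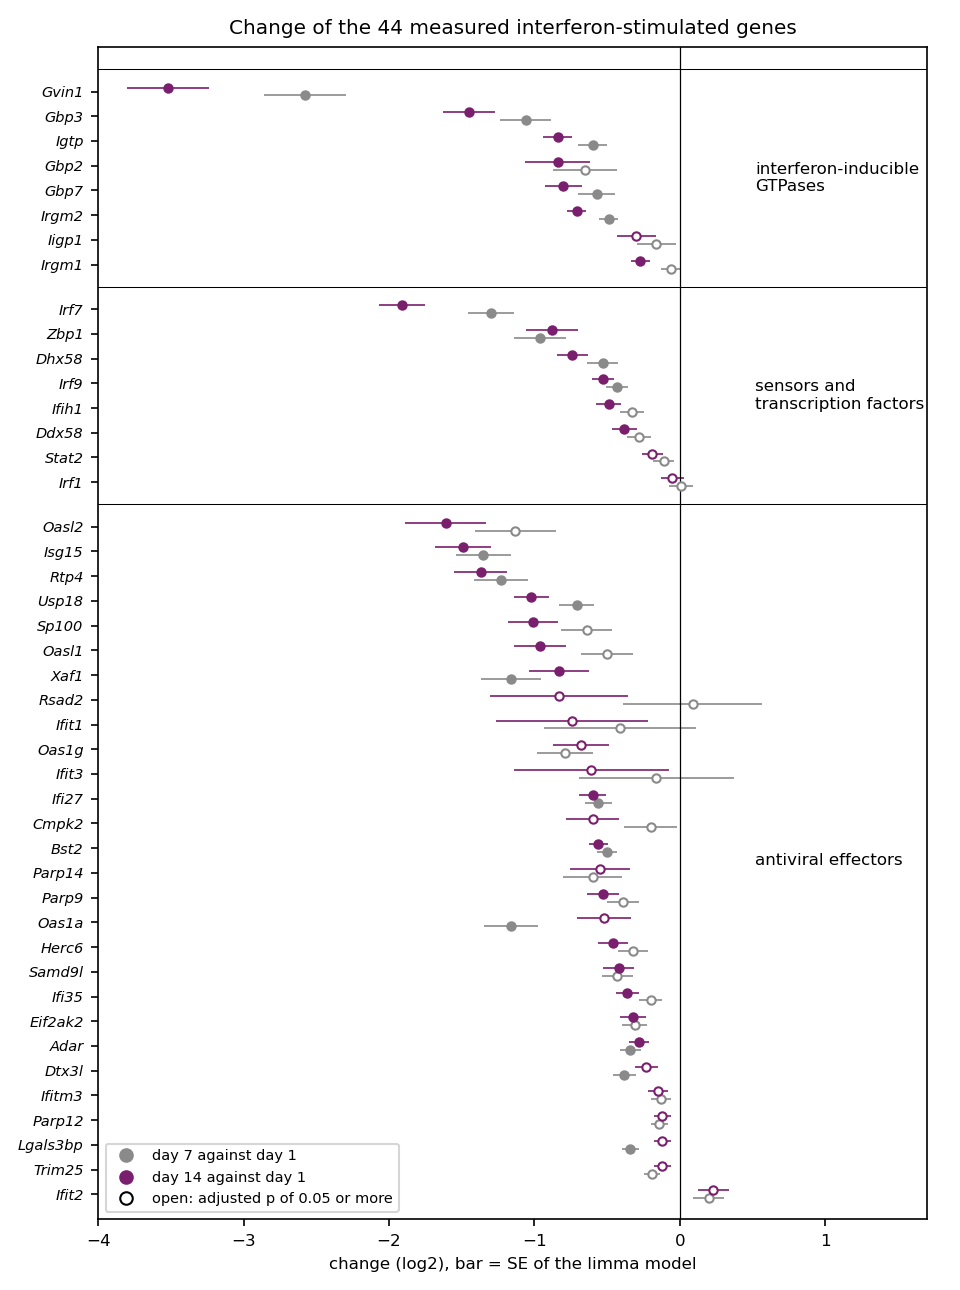
Change of each measured member from day 1 to day 7 (grey) and to day 14 (purple), in log2 units with the standard error of the model, ordered within the 3 classes. Filled points passed at an adjusted p under 0.05; all but Ifit2 lie left of 0 at day 14.

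Between days 7 and 14 no member passed in limma, against 0.185% of all genes lower and 0.304% higher. An unadjusted p under 0.05 was found for 9 members (13.7% of all genes). With a trended and robust spread 1 member passed as lower, Irf7, and 1 as higher, Lgals3bp, against 1.32% and 1.28% of all genes. The member median was -0.14 (all genes 0.01). The level was lower in all 4 preparations for 11 members (11.3% of all genes) and higher in all 4 for 4 members (13.2% of all genes). In Irf7, Igtp, Irgm2 and Gbp3 every day 14 array lay below every day 7 array (4 of 44, against 2.35% of all genes), and in Oas1a and Lgals3bp every day 14 array lay above (2.86% of all genes). By preparation the medians were -0.24, -0.11, 0.07 and -0.10. Female 1, which had fallen furthest by day 7, did not fall on balance in the second week. Both of its changes use the same day 7 array, so low values there would deepen the first and lessen the second.

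**Figure D2:**
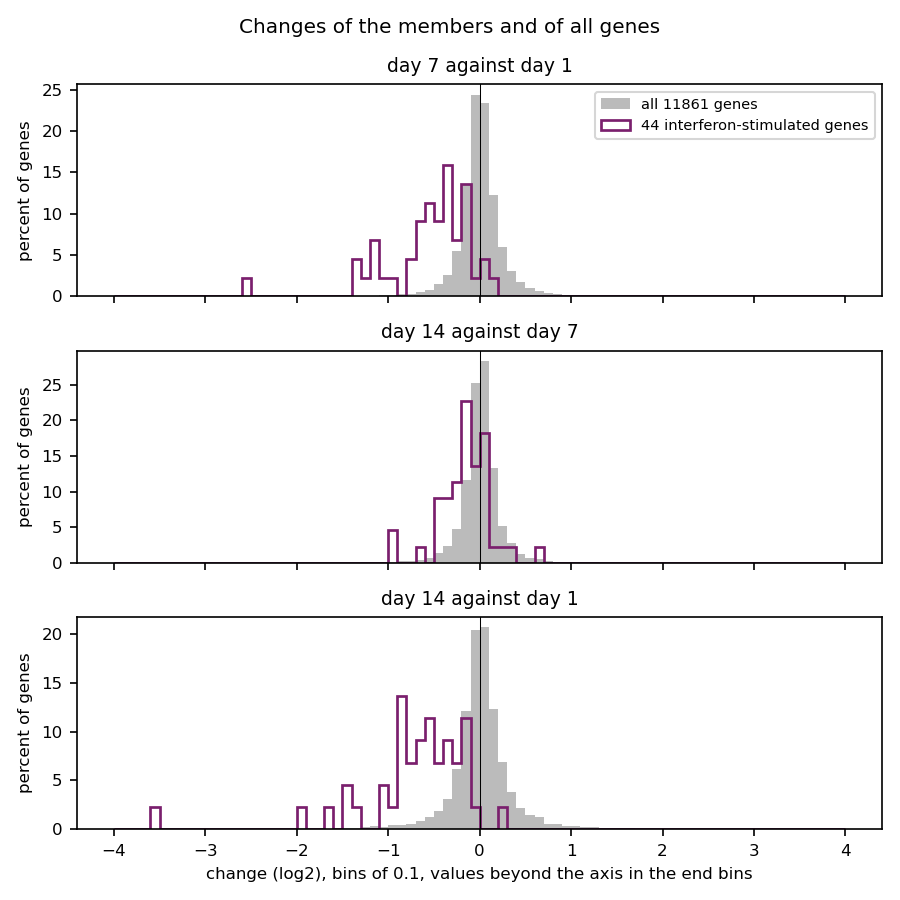
Distribution of changes (log2, bins of 0.1) of the 44 members, outlined, and of all 11861 genes, grey, as a percentage of each set, for the 3 day comparisons. The members lie left of 0 at day 7 and day 14 against day 1, with medians of -0.43 and -0.58, and mostly among the other genes between days 7 and 14.

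Of the 28 antiviral effectors, 10 passed as lower at day 7 (1.98% of all genes) and 15 at day 14 (6.8% of all genes), with medians of -0.40 and -0.56. Among them the ISG15 system comprises a ubiquitin-like tag and the enzymes that attach or remove it or work beside it. Isg15, the tag itself, measured 5.92, 6.09, 6.17 and 5.80 at day 1, 5.01, 4.39, 4.24 and 4.94 at day 7 and 4.34, 4.61, 4.40 and 4.68 at day 14. The day 1 arrays lay well above all later ones, which did not separate by day. The level fell by day 7 (-1.35 ± 0.19, adjusted p = 0.00924) and stood 2.81-fold below day 1 at day 14 (-1.49 ± 0.19, adjusted p = 0.00187). Its mean was near the background at day 7 (4.65) and at day 14 (4.51). Usp18, the protease that removes the tag and also restrains the interferon receptor, measured 9.33, 9.36, 9.28 and 9.04 at day 1, 8.83, 8.48, 8.47 and 8.37 at day 7 and 8.59, 8.11, 8.10 and 8.12 at day 14. Every later array lay below every day 1 array, and male 1 was highest at day 7 and day 14. Its change was -0.71 ± 0.12 (adjusted p = 0.017) at day 7 and -1.02 ± 0.12 (adjusted p = 0.00137) at day 14. Herc6, a ligase that attaches the tag in mice, measured 7.18, 6.86, 7.07 and 7.18 at day 1, 6.90, 6.70, 6.53 and 6.89 at day 7 and 6.47, 6.48, 6.69 and 6.79 at day 14, a shallow fall that passed at day 14 (-0.46 ± 0.10, adjusted p = 0.0202). Dtx3l, a ubiquitin ligase that partners Parp9, measured 7.72, 7.70, 7.93 and 7.74 at day 1, 7.36, 7.56, 7.21 and 7.42 at day 7 and 7.53, 7.68, 7.5 and 7.46 at day 14. It was lowest at day 7, where it passed (-0.38 ± 0.081, adjusted p = 0.0351), though not with the replicate block (adjusted p = 0.0549). Trim25, the ligase that activates the RNA sensor encoded by Ddx58, was at -0.12 ± 0.057 (adjusted p = 0.2) at day 14 and did not pass. Isg15 lost its day 7 call without male 1 (adjusted p = 0.0821), male 2 (adjusted p = 0.119) or female 1 (adjusted p = 0.0758). Usp18 and Dtx3l lost their day 7 calls whichever preparation was left out (adjusted p from 0.0615 to 0.14 and from 0.0995 to 0.293). Herc6 lost its day 14 call whichever preparation was left out (adjusted p from 0.0771 to 0.172).

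The OAS family includes enzymes that make the messenger that activates RNase L, and its 4 measured members did not follow 1 course. Oasl2, an OAS-like protein, measured 5.41, 5.5, 5.65 and 6.12 at day 1, 4.44, 4.20, 5.31 and 4.23 at day 7 and 3.35, 3.84, 5.01 and 4.04 at day 14. All later arrays lay below day 1, with female 1 the highest at days 7 and 14, and the change passed at day 14 (-1.61 ± 0.28, adjusted p = 0.00705). The Oasl2 means at day 7 (4.54) and day 14 (4.06) were near the background, which may understate the fall. Oasl1, which restrains translation of Irf7, measured 6.59, 6.42, 7.08 and 6.89 at day 1, 6.03, 6.08, 6.17 and 6.71 at day 7 and 5.24, 6.04, 5.90 and 5.97 at day 14. It passed at day 14 (-0.96 ± 0.18, adjusted p = 0.00964), with its day 7 values overlapping those of day 1 through female 2. Oas1a measured 5.78, 5.89, 5.74 and 5.41 at day 1, 5.08, 4.73, 4.66 and 3.72 at day 7 and 5.12, 5.19, 5.22 and 5.19 at day 14. All day 7 arrays lay below all others, female 2 lowest, and the day 14 arrays lay between those of days 7 and 1 in every preparation. The day 7 mean of Oas1a, 4.55, was near the background. The first-week change passed (-1.16 ± 0.19, adjusted p = 0.0146) and the 14-day change did not (-0.52 ± 0.19, adjusted p = 0.103). Oas1g was at -0.79 ± 0.20 (adjusted p = 0.0611) at day 7 and -0.68 ± 0.20 (adjusted p = 0.0506) at day 14, and passed in both with the replicate block (adjusted p = 0.0219 and 0.0141). Oas1a and Oas1g are related copies, and a probe set of one may read the other, which was not examined here. Oas1a lost its day 7 call without male 1 (adjusted p = 0.164) or male 2 (adjusted p = 0.193). Oasl2 lost its day 14 call without male 1 (adjusted p = 0.113) or male 2 (adjusted p = 0.0815). Oasl1 lost its day 14 call without male 1 (adjusted p = 0.0901), female 1 (adjusted p = 0.078) or female 2 (adjusted p = 0.0592).

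The IFIT proteins bind foreign RNA and block its translation, and none of the 3 passed in limma in any day comparison (0 with an unadjusted p under 0.05). Ifit1 measured 4.24, 4.88, 5.87 and 5.14 at day 1, 4.61, 4.08, 3.56 and 6.24 at day 7 and 4.80, 3.94, 4.37 and 4.07 at day 14. Ifit3 measured 5.12, 5.29, 6.55 and 6.85 at day 1, 5.61, 5.69, 4.66 and 7.21 at day 7 and 4.34, 6.07, 5.40 and 5.55 at day 14. Both were high in the female preparations at day 1, and at day 7 they were highest in female 2 and lowest in female 1. Rsad2, known as viperin, a radical enzyme that makes a chain-terminating nucleotide, measured 4.94, 5.09, 6.11 and 5.19 at day 1, 5.63, 4.64, 4.50 and 6.91 at day 7 and 4.39, 4.59, 4.61 and 4.41 at day 14, with its highest array again female 2 at day 7. Days 1 and 14 overlapped in Ifit1 and Ifit3 but not in Rsad2, and the standard errors were wide, with -0.74 ± 0.52 (adjusted p = 0.406) for Ifit1, -0.61 ± 0.53 (adjusted p = 0.51) for Ifit3 and -0.83 ± 0.48 (adjusted p = 0.301) for Rsad2. The probe set of Ifit3 may also read a near-identical copy, which was not examined here. Cmpk2, the nucleotide kinase that lies beside Rsad2 and supplies it, measured 6.25, 6.24, 7.09 and 6.88 at day 1, 6.69, 5.93, 6.32 and 6.71 at day 7 and 5.74, 6.19, 6.22 and 5.91 at day 14 and did not pass (-0.60 ± 0.18, adjusted p = 0.0628). Ifit2 measured 5.21, 5.17, 5.33 and 5.53 at day 1, 5.38, 5.48, 5.77 and 5.43 at day 7 and 5.52, 5.42, 5.42 and 5.79 at day 14, and it was the only member above its day 1 level at day 14 in all 4 preparations, without passing (0.23 ± 0.11, adjusted p = 0.212).

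**Figure D3:**
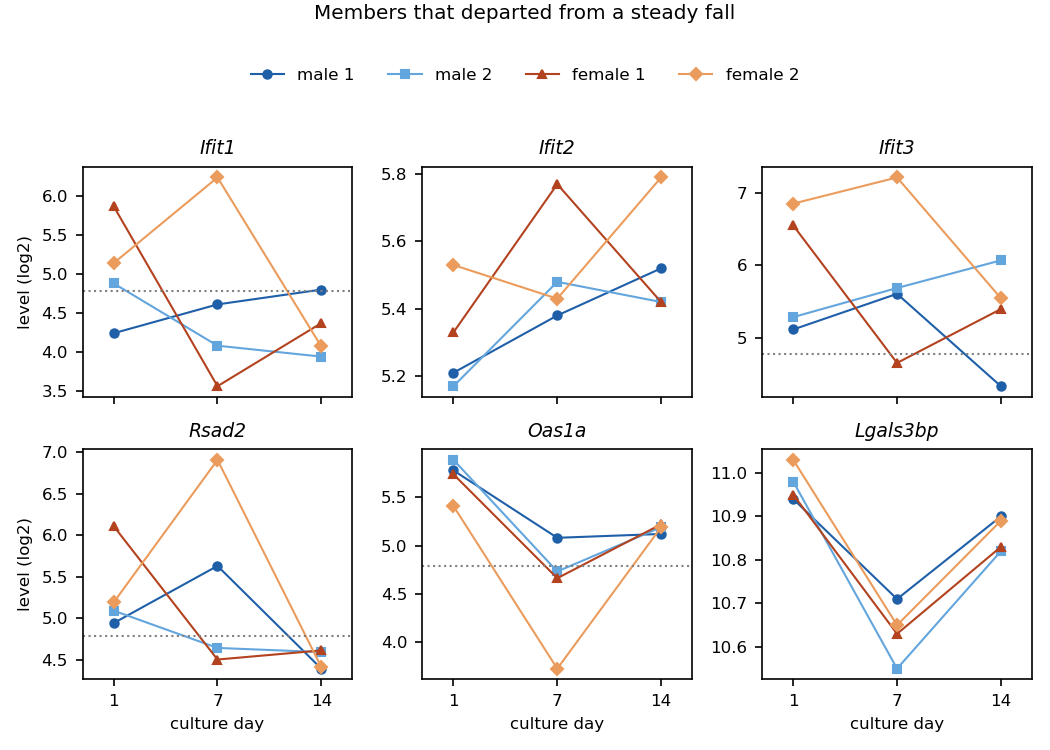
Level (log2) of Ifit1, Ifit2, Ifit3, Rsad2, Oas1a and Lgals3bp in each preparation at days 1, 7 and 14, drawn at equal steps; the dotted line marks 4.79. Female 2 at day 7 holds the highest Ifit1 (6.24), Ifit3 (7.21) and Rsad2 (6.91), and Oas1a and Lgals3bp are lowest at day 7 in every preparation.

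The remaining effectors act at membranes, on RNA or in the nucleus. Bst2, also called tetherin, which holds budding virus at the cell surface, measured 11.04, 11.05, 11.14 and 10.97 at day 1, 10.47, 10.53, 10.53 and 10.64 at day 7 and 10.40, 10.42, 10.49 and 10.65 at day 14. Its day 1 arrays lay above all later ones, and the change was -0.50 ± 0.066 (adjusted p = 0.0069) at day 7 and -0.56 ± 0.066 (adjusted p = 0.00137) at day 14. Rtp4, a chaperone of membrane receptors with antiviral activity, measured 6.30, 6.24, 6.22 and 6.04 at day 1, 5.20, 4.63, 5.04 and 5.02 at day 7 and 4.76, 4.78, 4.47 and 5.32 at day 14, with all later arrays below all day 1 arrays. The change was -1.23 ± 0.18 (adjusted p = 0.0113) at day 7 and -1.37 ± 0.18 (adjusted p = 0.00232) at day 14. Lgals3bp, a secreted glycoprotein that binds galectins, measured 10.94, 10.98, 10.95 and 11.03 at day 1, 10.71, 10.55, 10.63 and 10.65 at day 7 and 10.90, 10.82, 10.83 and 10.89 at day 14. The 3 days did not overlap: it was lowest at day 7 (-0.34 ± 0.06, adjusted p = 0.019) and partly back at day 14 (-0.12 ± 0.06, adjusted p = 0.25). Ifitm3, which blocks fusion of virus with the endosome, was at -0.15 ± 0.067 (adjusted p = 0.175) at day 14 and did not pass. The PARP enzymes, which add ADP-ribose, were represented by 3 members. Parp9 measured 7.20, 7.31, 7.29 and 7.33 at day 1, 7.11, 7.09, 6.52 and 6.85 at day 7 and 6.57, 7.02, 6.72 and 6.70 at day 14. It passed at day 14 (-0.53 ± 0.11, adjusted p = 0.0149) with no overlap between days 1 and 14. Parp12 (-0.12 ± 0.059, adjusted p = 0.215) and Parp14 (-0.55 ± 0.20, adjusted p = 0.113) did not pass. Bst2 lost its day 7 call without male 1 (adjusted p = 0.151), male 2 (adjusted p = 0.115) or female 1 (adjusted p = 0.0707). Rtp4 and Lgals3bp lost their day 7 calls whichever preparation was left out (adjusted p from 0.0502 to 0.141 and from 0.128 to 0.205). Parp9 lost its day 14 call without male 1 (adjusted p = 0.108), female 1 (adjusted p = 0.0813) or female 2 (adjusted p = 0.0997).

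Xaf1, a promoter of cell death, measured 7.04, 7.00, 7.21 and 6.54 at day 1, 6.26, 5.40, 5.60 and 5.91 at day 7 and 6.05, 6.22, 6.26 and 5.93 at day 14. Its mean was lowest at day 7 (-1.16 ± 0.21, adjusted p = 0.0205), and all later arrays lay below day 1 (-0.83 ± 0.21, adjusted p = 0.0316 at day 14). Sp100, a component of nuclear bodies that restrict DNA viruses, measured 5.12, 5.03, 5.66 and 5.54 at day 1, 4.26, 5.01, 5.02 and 4.48 at day 7 and 3.55, 3.84, 4.97 and 4.95 at day 14. At day 14 both male arrays lay near the background and both female arrays above it, and the change passed (-1.01 ± 0.17, adjusted p = 0.00676). Ifi27, a small membrane protein, measured 7.68, 7.73, 7.87 and 7.75 at day 1, 6.93, 7.25, 7.21 and 7.39 at day 7 and 6.86, 7.09, 7.29 and 7.38 at day 14 and passed at day 7 (-0.56 ± 0.091, adjusted p = 0.0143) and at day 14 (-0.60 ± 0.091, adjusted p = 0.00381). Its later arrays all lay below day 1. Xaf1 and Ifi27 lost their day 7 calls whichever preparation was left out (adjusted p from 0.0778 to 0.161 and from 0.073 to 0.139). Sp100 lost its day 14 call without female 1 (adjusted p = 0.06) or female 2 (adjusted p = 0.0554). Ifi27 lost its day 14 call without female 1 (adjusted p = 0.0588). Xaf1 lost its day 14 call whichever preparation was left out (adjusted p from 0.0885 to 0.129).

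Smaller falls passed for 4 further effectors. Ifi35, an interferon-induced leucine zipper protein, measured 7.80, 7.84, 7.69 and 7.62 at day 1, 7.60, 7.55, 7.38 and 7.63 at day 7 and 7.5, 7.30, 7.42 and 7.30 at day 14 (-0.36 ± 0.078, adjusted p = 0.0174 at day 14). Samd9l, which restricts poxviruses, measured 8.32, 8.23, 8.31 and 8.03 at day 1, 8.17, 7.77, 7.58 and 7.66 at day 7 and 7.68, 7.93, 7.77 and 7.85 at day 14 (-0.42 ± 0.11, adjusted p = 0.0355; replicate block, adjusted p = 0.0639). In both, days 1 and 14 did not overlap. Eif2ak2, the kinase PKR that halts translation on double-stranded RNA, measured 8.88, 8.74, 8.76 and 8.79 at day 1, 8.57, 8.68, 8.18 and 8.48 at day 7 and 8.33, 8.48, 8.42 and 8.64 at day 14 (-0.32 ± 0.088, adjusted p = 0.0438). Adar, which edits double-stranded RNA, measured 8.12, 8.10, 7.89 and 7.85 at day 1, 7.93, 7.64, 7.49 and 7.54 at day 7 and 7.85, 7.80, 7.59 and 7.61 at day 14. The change passed at day 7 (-0.34 ± 0.071, adjusted p = 0.0337) and at day 14 (-0.28 ± 0.071, adjusted p = 0.033), with both males above both females at every day. The lowest day 1 array and the highest day 14 array were both at 7.85. Adar lost its day 7 call whichever preparation was left out (adjusted p from 0.127 to 0.213). Ifi35, Samd9l, Eif2ak2 and Adar lost their day 14 calls whichever preparation was left out (adjusted p from 0.0692 to 0.184, from 0.0665 to 0.23, from 0.0804 to 0.332 and from 0.113 to 0.195).

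Of the 8 sensors and transcription factors 4 passed as lower at day 7 (1.98% of all genes) and 6 at day 14 (6.8% of all genes), with medians of -0.38 and -0.51. All 4 sensors of foreign nucleic acid had fallen by day 14. Dhx58, the regulator LGP2, measured 6.85, 6.78, 6.79 and 6.92 at day 1, 6.37, 6.54, 6.28 and 6.02 at day 7 and 5.67, 6.05, 6.42 and 6.22 at day 14, with each preparation below its own day 1 value throughout, and passed at day 7 (-0.53 ± 0.11, adjusted p = 0.0298) and day 14 (-0.74 ± 0.11, adjusted p = 0.00289). Ifih1, the long-RNA sensor MDA5, measured 9.39, 9.35, 9.35 and 9.17 at day 1, 9.13, 8.90, 8.91 and 9.02 at day 7 and 8.90, 8.79, 8.70 and 8.92 at day 14 and passed at day 14 (-0.49 ± 0.083, adjusted p = 0.00657). Ddx58, the sensor RIG-I, measured 8.10, 8.06, 7.80 and 8.0 at day 1, 7.81, 7.67, 7.65 and 7.71 at day 7 and 7.65, 7.36, 7.65 and 7.78 at day 14 and passed at day 14 (-0.38 ± 0.085, adjusted p = 0.0195). Days 1 and 14 did not overlap in any of these 3. Zbp1, a sensor of Z-form nucleic acid that triggers cell death, measured 4.62, 4.91, 4.99 and 4.79 at day 1, 4.11, 3.71, 3.56 and 4.09 at day 7 and 3.85, 4.13, 3.61 and 4.20 at day 14, close to 4.79 from the start and without overlap between day 1 and later days. It passed at day 7 (-0.96 ± 0.18, adjusted p = 0.0219) and day 14 (-0.88 ± 0.18, adjusted p = 0.0132). Only day 1 arrays of Zbp1 reached 4.79, so it may be in the table through day 1 alone. Its fall and calls are therefore not independent of the removal of low rows. Dhx58 and Zbp1 lost their day 7 calls whichever preparation was left out (adjusted p from 0.1 to 0.209 and from 0.061 to 0.218). Dhx58 lost its day 14 call without male 1 (adjusted p = 0.053). Ifih1 lost its day 14 call without male 1 (adjusted p = 0.0749), male 2 (adjusted p = 0.0803) or female 1 (adjusted p = 0.0765). Zbp1 lost its day 14 call without male 1 (adjusted p = 0.104), male 2 (adjusted p = 0.0989) or female 1 (adjusted p = 0.0701). Ddx58 lost its day 14 call whichever preparation was left out (adjusted p from 0.0795 to 0.147).

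The transcription factors split. Irf7, the regulator that amplifies type I interferon production, measured 8.86, 9.04, 9.27 and 8.51 at day 1, 7.65, 7.57, 7.66 and 7.61 at day 7 and 6.39, 6.77, 7.49 and 7.40 at day 14. The days separated completely, each below the one before, and at day 14 both males lay below both females. Irf7 fell by day 7 (-1.30 ± 0.16, adjusted p = 0.00526) and stood 3.75-fold below day 1 at day 14 (-1.91 ± 0.16, adjusted p = 0.00029), the largest change among the sensors and transcription factors. Irf9, the DNA-binding partner of Stat2, measured 8.21, 8.26, 7.98 and 7.92 at day 1, 7.92, 7.75, 7.5 and 7.49 at day 7 and 7.86, 7.59, 7.45 and 7.36 at day 14, and passed at day 7 (-0.43 ± 0.075, adjusted p = 0.0192) and day 14 (-0.53 ± 0.075, adjusted p = 0.00306). Its males lay above its females at every day, and each preparation was lower at day 7 than at day 1 and lower still at day 14. Stat2, with -0.19 ± 0.072 (adjusted p = 0.122), and Irf1, the factor through which type II interferon reaches many targets, with -0.05 ± 0.082 (adjusted p = 0.737), did not pass at day 14. Irf7 lost its day 7 call without male 1 (adjusted p = 0.085) or male 2 (adjusted p = 0.0892). Irf9 lost its day 7 call whichever preparation was left out (adjusted p from 0.103 to 0.148). Irf9 lost its day 14 call without female 2 (adjusted p = 0.0536).

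The interferon-inducible GTPases, which assemble on the vacuoles of intracellular pathogens, held the largest change of all members. Of the 8 measured, 5 passed as lower at day 7 (1.98% of all genes) and 7 at day 14 (6.8% of all genes), with medians of -0.58 and -0.82. Gvin1, the very large inducible GTPase, measured 8.12, 8.16, 6.82 and 6.91 at day 1, 5.81, 5.70, 4.00 and 4.17 at day 7 and 3.43, 4.53, 4.56 and 3.38 at day 14. At days 1 and 7 both males lay above both females, and by day 14 all 4 arrays were near the background. Its change was -2.58 ± 0.28 (adjusted p = 0.00336) at day 7 and -3.52 ± 0.28 (adjusted p = 0.000272) at day 14, an 11.5-fold fall that the background may understate. Gvin1 belongs to a family of near-identical copies, so the probe set may read others of them. Gvin1 lost its day 7 call without male 1 (adjusted p = 0.0615).

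Among the immunity-related GTPases, Igtp, also called Irgm3, measured 7.21, 7.18, 7.66 and 7.51 at day 1, 6.72, 6.83, 6.88 and 6.73 at day 7 and 6.19, 6.62, 6.71 and 6.68 at day 14. Irgm2 measured 8.76, 8.81, 8.83 and 8.81 at day 1, 8.52, 8.34, 8.16 and 8.23 at day 7 and 8.11, 8.04, 8.04 and 8.15 at day 14. In both genes the 3 days did not overlap and stepped down in order. Igtp changed by -0.60 ± 0.098 (adjusted p = 0.0146) at day 7 and -0.84 ± 0.098 (adjusted p = 0.00125) at day 14, and Irgm2 by -0.49 ± 0.063 (adjusted p = 0.00646) and -0.71 ± 0.063 (adjusted p = 0.00035). Irgm1, which keeps the others inactive on the cell's own membranes, measured 9.24, 9.29, 9.32 and 9.29 at day 1, 9.13, 9.18, 9.40 and 9.20 at day 7 and 8.88, 8.93, 9.19 and 9.04 at day 14. It did not pass at day 7 (-0.06 ± 0.066, adjusted p = 0.715) and passed at day 14 (-0.27 ± 0.066, adjusted p = 0.0283). Iigp1, which attacks the vacuole, was at -0.30 ± 0.13 (adjusted p = 0.183) at day 14 and did not pass. Igtp and Irgm2 lost their day 7 calls whichever preparation was left out (adjusted p from 0.0673 to 0.125 and from 0.0778 to 0.112). Irgm1 lost its day 14 call whichever preparation was left out (adjusted p from 0.0737 to 0.215).

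The guanylate-binding proteins coat and break open pathogen vacuoles, and all 3 measured members had fallen by day 14. Gbp3 measured 5.48, 4.61, 5.79 and 5.75 at day 1, 4.44, 4.37, 4.19 and 4.39 at day 7 and 3.72, 4.17, 3.92 and 4.02 at day 14, with male 2 the lowest at day 1 and every later array below it. Its change was -1.06 ± 0.18 (adjusted p = 0.016) at day 7 and -1.45 ± 0.18 (adjusted p = 0.00145) at day 14. Gbp2 measured 5.18, 5.07, 5.65 and 5.32 at day 1, 4.31, 5.12, 4.37 and 4.80 at day 7 and 4.15, 4.92, 4.31 and 4.47 at day 14 and passed at day 14 (-0.84 ± 0.22, adjusted p = 0.0375). Male 2 was the lowest of the 4 preparations at day 1 and the highest at days 7 and 14. Gbp7 measured 6.82, 6.86, 7.22 and 7.06 at day 1, 6.70, 6.11, 6.43 and 6.45 at day 7 and 6.07, 5.99, 6.50 and 6.19 at day 14 and passed at day 7 (-0.57 ± 0.13, adjusted p = 0.0434) and day 14 (-0.80 ± 0.13, adjusted p = 0.00483). In all 3 genes days 1 and 14 did not overlap. Gbp3 lost its day 7 call without female 1 (adjusted p = 0.148) or female 2 (adjusted p = 0.132). Gbp7 lost its day 7 call whichever preparation was left out (adjusted p from 0.0921 to 0.219). Gbp2 lost its day 14 call without male 1 (adjusted p = 0.113), female 1 (adjusted p = 0.212) or female 2 (adjusted p = 0.13). Gbp7 lost its day 14 call without female 2 (adjusted p = 0.06).

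**Figure D4:**
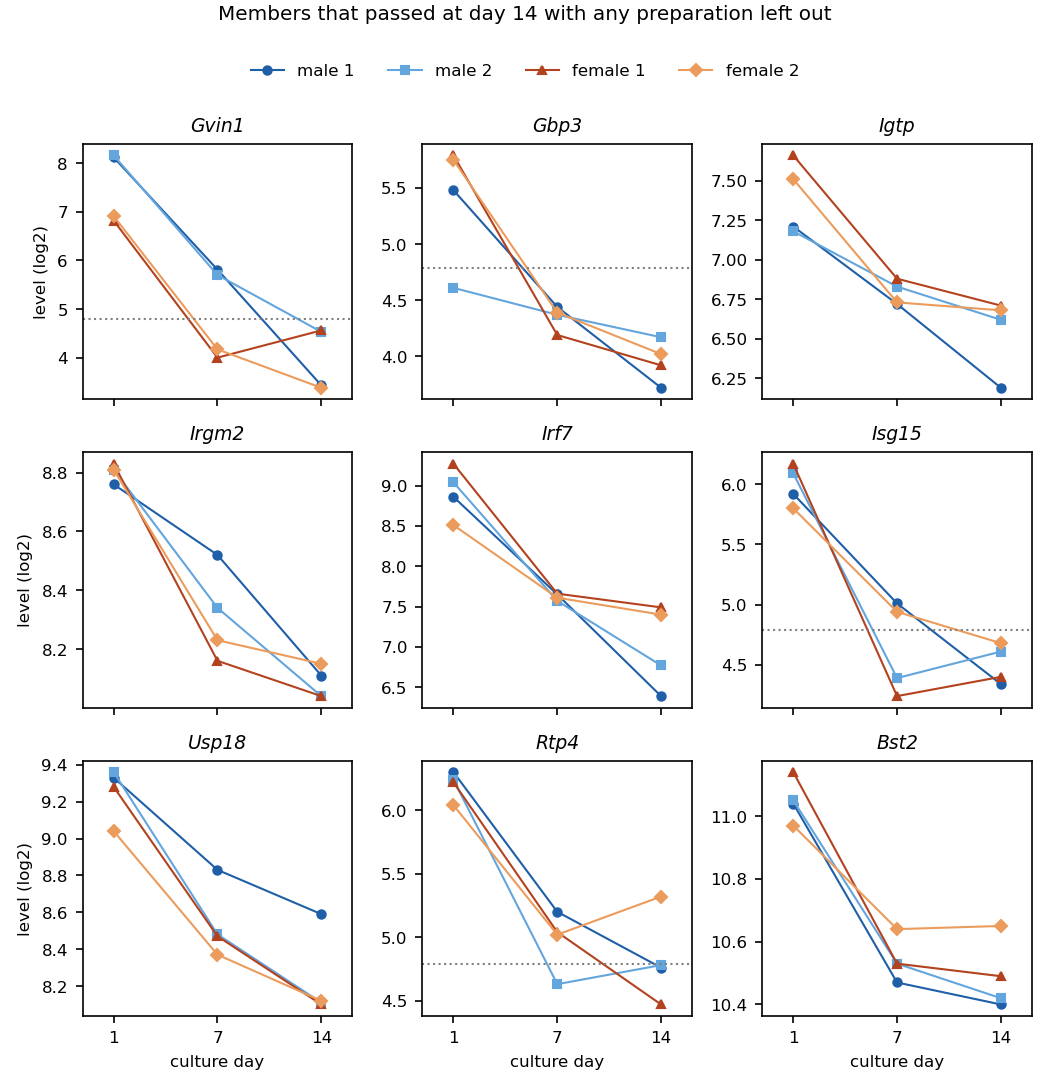
Level (log2) of the 9 members that passed at day 14 with any preparation left out, in each preparation at days 1, 7 and 14, drawn at equal steps; the dotted line marks 4.79. In each panel all day 14 arrays lie below all day 1 arrays, and Gvin1 falls furthest, from a mean of 7.5 to 3.98. Gbp3 reaches 4.79 only at day 1, so its fall is not independent of the removal of low rows.

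With 1 preparation left out each group of that sex and day holds 1 array, whose spread is taken from the other groups. At day 14 against day 1, 9 members passed whichever preparation was left out: Gvin1, Irf7, Isg15, Gbp3, Rtp4, Usp18, Igtp, Irgm2 and Bst2. The other 19 day 14 calls were lost in at least 1 of these fits, and the number of members lower was 13 without male 1, 17 without male 2, 13 without female 1 and 15 without female 2, against 1.71%, 2.62%, 3.13% and 2.78% of all genes. No first-week call passed in all 4 of these fits, where the number of members lower was 1 without male 1, 2 without male 2, 4 without female 1 and 5 without female 2, against 0.126%, 0.337%, 0.253% and 0.304% of all genes.

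A contrast added after the data were seen was the second-week change minus the first-week change. Both changes use the same day 7 arrays, so a gene with low day 7 values has a value above 0 by construction. It was above 0 in 38 of 44 members and 51.6% of all genes. No member passed in limma, and 1 gene of all did (0.00843%, above 0). An unadjusted p under 0.05 was found for 17 members and 10.5% of all genes. The largest positive values relative to their error were 1.79 ± 0.33 for Oas1a and 0.56 ± 0.10 for Lgals3bp, adjusted p = 0.15 for each. The day 7 mean of Oas1a was near the background.

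Sex was compared in the same genes. In the means of each preparation over the 3 days, 2 males against 2 females, no member passed in limma, against 0.0843% of all genes lower in males and 0.0927% higher. An unadjusted p under 0.05 was found for 9 of 44 members, near the 19.8% of all genes, and 2 passed as higher in males with a trended and robust spread, near the 3.51% of all genes. Gvin1 came nearest, at 0.98 ± 0.17 (male minus female, adjusted p = 0.0919). No member passed at day 1 (all genes 0.422% lower, 0.346% higher), day 7 (0.16% and 0.194%) or day 14 (0.809% and 0.253%), where 6, 7 and 6 members had an unadjusted p under 0.05. These counts were near the shares of all genes, 13.5%, 13.2% and 14.9%. Sp100 at day 14 was -1.26 ± 0.25 (adjusted p = 0.0583). For the sex difference in a change, 0 of all genes (0%) passed in any of the 3 day comparisons, and 1, 5 and 2 members had an unadjusted p under 0.05 at day 7 against day 1, day 14 against day 7 and day 14 against day 1 (all genes 4.76%, 4.09% and 6.87%). Irf7 had the smallest p over 14 days, at -0.92 ± 0.32 (male change minus female change, adjusted p = 0.538).

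Upstream of these genes the counts at day 14 lay near or below those of all genes, of which 6.8% were lower and 7.59% higher. Of 17 listed ligands and receptors 9 were measured, of which none passed as lower and 1 as higher. It was Ifnlr1, the type III interferon receptor, which measured 6.28, 6.68, 6.38 and 6.73 at day 1, 7.04, 6.95, 6.89 and 6.99 at day 7 and 7.14, 7.01, 7.05 and 6.87 at day 14 (0.50 ± 0.11, adjusted p = 0.0196; lost whichever preparation was left out, adjusted p from 0.0512 to 0.195). The type I receptor chains Ifnar1 (0.09 ± 0.076, adjusted p = 0.519) and Ifnar2 (-0.08 ± 0.058, adjusted p = 0.429) did not pass. The type I ligand Ifna1 had a day 14 mean of 4.49, near the background, and Ifnb1 was not analysed here. Of 17 genes of upstream sensing 12 were measured and none passed in limma at day 14 (2 with an unadjusted p under 0.05, against 28.6% of all genes), and 1 passed as lower with the replicate block (6.44% of all genes). Sting1, the adaptor of DNA sensing, measured 5.77, 5.84, 5.62 and 5.53 at day 1, 4.96, 5.85, 5.37 and 5.64 at day 7 and 2.95, 4.14, 6.22 and 5.52 at day 14. At day 14 both males were low and both females near or above their day 1 level (-0.98 ± 0.29, adjusted p = 0.0557; replicate block, adjusted p = 0.0287; without male 2, adjusted p = 0.0375). Between the sexes at day 14 it passed as lower in males (male minus female -2.32 ± 0.41, adjusted p = 0.0382). That call was lost without male 1 (adjusted p = 0.173), female 1 (adjusted p = 0.282) or female 2 (adjusted p = 0.148). The sex difference in its change from day 1 to day 14 did not pass (-2.55 ± 0.58, adjusted p = 0.311). Of 17 genes of JAK-STAT signalling and its brakes 14 were measured and 1 passed at day 14, as lower. This was Socs2, a brake on growth hormone signalling, which measured 7.60, 7.62, 7.23 and 7.11 at day 1, 6.78, 6.96, 6.56 and 6.14 at day 7 and 6.86, 6.70, 6.23 and 5.98 at day 14 (-0.95 ± 0.11, adjusted p = 0.00105). Jak1 (0.05 ± 0.075, adjusted p = 0.755) and Tyk2 (-0.14 ± 0.069, adjusted p = 0.245) did not pass.

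A further list of 81 interferon-stimulated genes outside the 48 had 52 measured, of which 14 passed as lower at day 14 (26.9%, against 6.8% of all genes) and none as higher (7.59% of all genes), with a median of -0.20. The 5 with the largest change were Apol9a, Apol9b, Slfn2, Tgtp2 and Phf11d. Apol9a, an apolipoprotein L family gene, measured 8.75, 8.95, 8.99 and 8.67 at day 1, 7.77, 7.36, 7.13 and 7.14 at day 7 and 7.09, 6.84, 7.14 and 7.03 at day 14 (-1.81 ± 0.12, adjusted p = 8.25e-05). Slfn2, a schlafen family gene, measured 8.12, 8.18, 7.85 and 7.92 at day 1, 7.20, 7.22, 6.88 and 6.70 at day 7 and 6.71, 6.71, 7.19 and 6.98 at day 14 (-1.12 ± 0.07, adjusted p = 7.51e-05). In both every later array lay below every day 1 array. Apol9b fell by day 14 as well (-1.66 ± 0.17, adjusted p = 0.000728). Tgtp2, an immunity-related GTPase, changed by -1.12 ± 0.20 (adjusted p = 0.00833) and Phf11d by -1.04 ± 0.16 (adjusted p = 0.00403). The call of Tgtp2 was lost without male 1 (adjusted p = 0.0584), female 1 (adjusted p = 0.0501) or female 2 (adjusted p = 0.0573), and that of Phf11d without male 1 (adjusted p = 0.0642). Apol9a and Apol9b are near-identical copies, and Tgtp2 has another, so their probe sets may read both.

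Major histocompatibility class I, which displays peptides on the cell surface and also answers to interferon, was measured in 18 of 21 listed genes, with a median change of -0.05 at day 14. Of these 1 passed as lower (5.56%, all genes 6.8%) and 1 as higher (5.56%, all genes 7.59%), so neither share was above that of all genes. H2-T22 passed as lower (-0.30 ± 0.085, adjusted p = 0.0472) and H2-Q4 as higher (0.27 ± 0.07, adjusted p = 0.0344; replicate block, adjusted p = 0.0575). H2-Q4 lost its call whichever preparation was left out (adjusted p from 0.103 to 0.291), and H2-T22 without male 1 (adjusted p = 0.263), male 2 (adjusted p = 0.265) or female 1 (adjusted p = 0.127). These genes have near-identical relatives. B2m, the shared light chain, changed by -0.02 ± 0.051 (adjusted p = 0.839), and Psmb8, an interferon-inducible subunit of the immunoproteasome, by -0.23 ± 0.10 (adjusted p = 0.181), which did not pass.

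Markers of other liver cells moved over the same days. Of 15 listed markers of stellate cells and fibroblasts 14 were measured, with mean levels of 6.94 at day 1 (6.83 to 7.03 over the arrays), 6.17 at day 7 (5.58 to 6.45) and 5.55 at day 14 (4.30 to 6.64). At day 14, 9 of them passed as lower, against 6.8% of all genes. Of 15 markers of sinusoidal endothelium 10 were measured, with means of 6.36 (5.93 to 6.59), 6.03 (5.19 to 6.54) and 5.26 (4.50 to 6.03). At day 14, 5 of these passed as lower (6.8% of all genes). Of 20 markers of Kupffer cells and macrophages 16 were measured, with means of 4.77 (4.26 to 5.30), 5.60 (4.99 to 6.35) and 5.68 (4.90 to 6.91). At day 14, 2 of them passed as higher (7.59% of all genes), and 10 with the replicate block (7.55% of all genes). Of these 16 markers 10 had a mean near the background at day 1, 5 at day 7 and 6 at day 14. Clec4f and Adgre1 were among those low at day 14, with means of 4.56 and 4.22. The list as a whole was higher at day 14 than at day 1 in every preparation. Its mean change was 0.72 in male 1, 0.64 in male 2, 1.61 in female 1 and 0.65 in female 2. Of 16 markers of lymphocytes and plasmacytoid dendritic cells 1 was measured, Bst2, itself a member. The stellate list changed by -2.72 in male 1, -1.65 in male 2, -0.26 in female 1 and -0.90 in female 2 by day 14. The endothelial list changed by -1.43, -1.60, -0.56 and -0.79. In the same order the antiviral effectors changed by -0.66, -0.51, -0.69 and -0.55, the sensors and transcription factors by -0.74, -0.70, -0.63 and -0.51, and the GTPases by -1.32, -0.90, -0.99 and -1.16. The change of the stellate list and that of the GTPases were both largest in male 1, and that of the sensors and transcription factors was larger in both males than in both females. Other orders differed: the antiviral effectors fell most in female 1 (-0.69), where the stellate list fell least (-0.26). The GTPases fell more in female 2 (-1.16) than in male 2 (-0.90), while the stellate and endothelial lists fell more in male 2. The part of these cells in the fall of the interferon-stimulated genes was not tested.

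**Figure D5:**
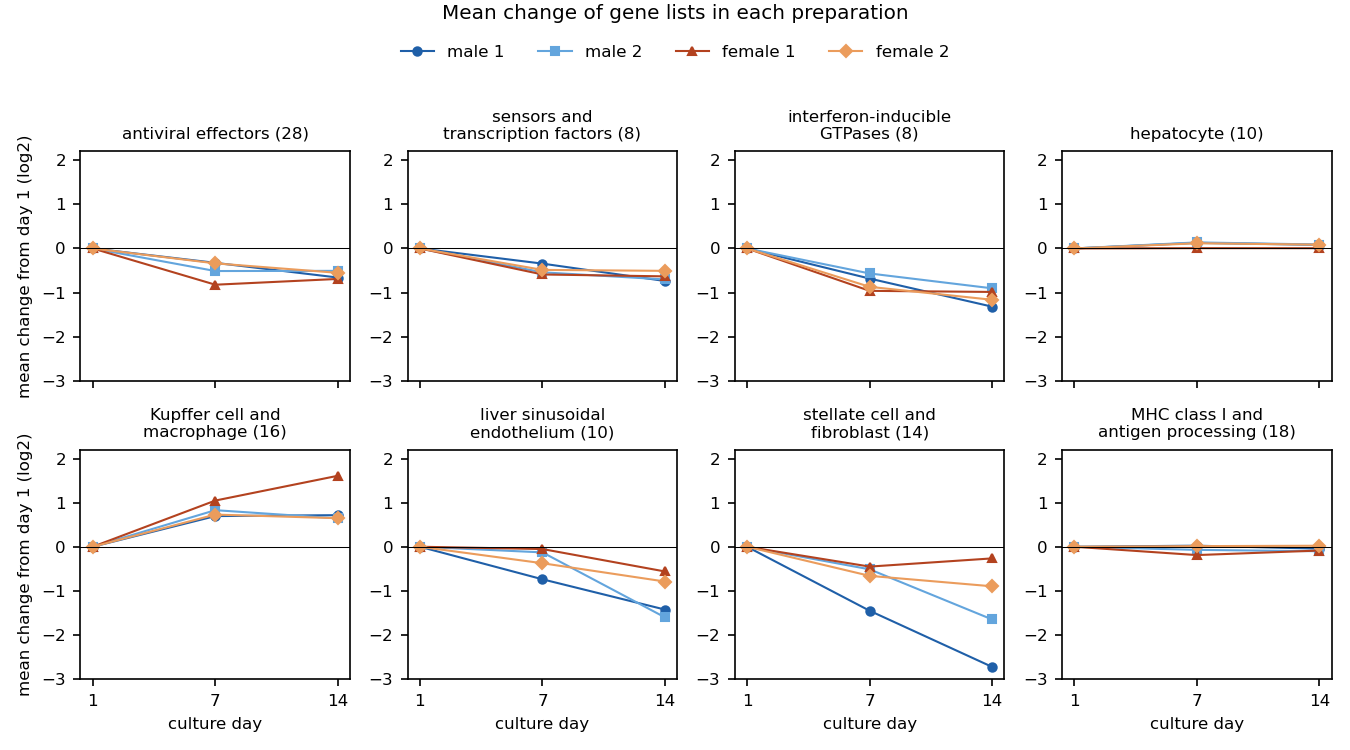
Mean change from day 1 (log2) of the genes of 8 lists in each preparation, with the number of genes measured in brackets and days drawn at equal steps. At day 14 the 3 member classes lie between -1.32 and -0.51 over the 4 preparations and the stellate list between -2.72 and -0.26, and the hepatocyte and MHC class I lists stay between -0.19 and 0.14.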

How the data were processed

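Values are log2 levels as deposited by the authors, 1 per probe set and array, on 12 arrays of spheroids. The submitters' processing notes name RMA, Transcriptome Analysis Console 4.0 and Partek 7.0, with no role or order, and the annotation release and genome build were not given in the sources used here. The table held 13081 probe sets, of which 11889 had 1 gene symbol, 1192 had none and 0 had several. Where a symbol had more than 1 probe set (19 symbols) that of highest mean was used, giving 11861 genes. No column of array values was left unused (0).

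Groups came from the sample labels. The test was limma 3.58.1 in R 4.3.3 (lmFit, contrasts.fit and eBayes without trend, not robust) on a mean for each of the 6 groups, two-sided, with Benjamini-Hochberg adjustment. A day comparison averages the changes within each sex, and sex over all days used the mean of the 3 arrays of each preparation. The donor number within a sex marks the same pool, per the labels, so the numbers pair the samples: deviations of same-numbered arrays correlated at 0.04 to 0.32. The pools are separate animals, so p-values measure the spread between pools. The number of arrays limits the precision, with a median standard error of 0.095 for a day comparison.

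The members and lists were chosen with earlier results of these data known. Named in full were members that passed in any day comparison, the largest change of each class and, of each pathway list, up to 5 genes that passed at day 14 or else the 1 with the largest change; other genes named were chosen after their values were seen. Listed symbols on 1 gene of the table were counted once. Sequence identity among family members and the sequences of the probes were not examined, so remarks on near-identical copies are background. Promoters came from RefSeq (GRCm38.p6) and were searched with Python 3.11.15. Figures were drawn with matplotlib 3.10.9. Alternatives were the replicate block, fixed or random, each preparation left out, median centring, a second quantile normalization, a trended and robust spread, a minimum mean of 5.5, only the days compared, and all probe sets.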

Additional observations from a re-analysis of the deposited data

Results flagged for a closer look

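In groups of 4 arrays of a day, 1 array stood apart from the other 3 in 2 of 132 groups tested, fewer than the 1 in 20 that chance gives. Usp18 in male 1 at day 14 was 8.59, above 8.10 to 8.12 in the other preparations. Igtp in male 1 at day 14 was 6.19, below 6.62 to 6.71.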

How the results depend on the processing

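The arrays are few, so leaving out 1 preparation moved the counts most. Members lower at day 7 numbered 1 to 5 (19 with all arrays), and members lower at day 14 numbered 13 to 17 (28). The replicate block kept both counts, 19 and 28, of which 18 and 27 were the same genes; beside the changes given above, the one other call it changed in a named gene was Tgtp2 between days 7 and 14 (-0.97, adjusted p = 0.0159). With the preparation as a random block 19 and 29 were lower. Trended and robust spread gave 25 and 32, with 1 lower and 1 higher between days 7 and 14, and 2 higher in males over all days. The median change at day 14 was -0.63 to -0.55 with 1 preparation left out and -0.49 with a minimum mean of 5.5. Centring or a second quantile normalization reversed no direction. For the genes of the pathway lists these settings were chosen after seeing the data. Changes between days 7 and 14, none of which passed, reversed for 6 genes. Isg15 (0.08) and Rtp4 (0.01) reversed without male 1, Samd9l (-0.15) and Zbp1 (-0.09) without male 2, Rtp4 (0.08) and Ifnlr1 (-0.02) without female 1, and Eif2ak2 (0.01) without female 2. With each preparation left out in turn they ranged from -0.36 to 0.08 for Isg15 and Rtp4, -0.15 to 0.18 for Samd9l, -0.09 to 0.25 for Zbp1, -0.02 to 0.12 for Ifnlr1 and -0.03 to 0.01 for Eif2ak2; the cause was not tested.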
